A study of Mus musculus with 16 samples.

Results

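Transcripts of the G1/S cyclins, their kinases and the inhibitors that hold them back were followed in Neuro 2a cells, a mouse neuroblastoma line that the labels assign to strain C57BL/6J. The set was defined as every array probe whose platform gene symbol was Ccne1, Ccne2, Ccnd1, Ccnd2, Ccnd3, Cdk2, Cdk4, Cdkn2a, Cdkn1b or E2f1. It held 19 of 25697 probes, for 9 of the 10 genes, and no probe carrying the symbol Cdk4 was analysed here. Detection on all 4 arrays of at least 1 group left 15 of these probes, for 8 genes, among 10794 probes in all. The 1 probe of Ccnd2, 1 of 3 probes of Ccnd3 and 2 of 3 probes of Cdkn1b were detected on 0 of 16 arrays.

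The arrays formed 4 groups of 4. Basal-total and Basal-ARP came from untreated cells, and Ox-total and Ox-ARP from cells given hydrogen peroxide, at a dose and for a time not given in the sources used here. By the extraction protocol, which is the same for all 4 groups, the RNA had been derivatized with ARP, the aldehyde reactive probe, a biotin reagent that couples to ribose that has lost its base. The ARP groups were then pulled down on streptavidin beads, whereas the total groups were hybridised without selection. No group held RNA pulled down without ARP, so retention on the beads by other means and retention through abasic sites cannot be told apart. The labels number the arrays 1 to 4 within each group but do not say whether they came from separate cultures, so the p-values measure the spread between these arrays, which may be technical.

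Passage from G1 into S phase is driven by D-type cyclins with CDK4 or CDK6 and by E-type cyclins with CDK2. These kinases phosphorylate the retinoblastoma protein and so release E2F transcription factors, which switch on genes of DNA synthesis, the E-type cyclins among them. The INK4 inhibitor p16 blocks CDK4 and CDK6, p27, the product of Cdkn1b, restrains cyclin E-CDK2, and p19ARF, the other product of Cdkn2a in the mouse, stabilises p53 through MDM2.

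Array mean intensities ran from 328 to 533, and 10351 to 11068 probes were detected per array. Arrays 1 and 2 of every group lay on 1 chip and arrays 3 and 4 on another. Markers of the cell line were checked first. Of the neuroblastoma genes 12 of 18 on the platform were detected on all arrays of each of 3 groups and 13 in Ox-ARP, with Phox2a, Hand2, Gata2, Gata3, Isl1 and Dbh among them. The others on the platform, Hand1, Mycn, Tubb3, Nefl and Nefm, were not detected throughout any group. The summed intensity of the list ran from 15549 to 28428 per array. Of 8 fibroblast genes Dcn alone was detected throughout a group, in Ox-total and Ox-ARP, and its log2 value was 0.44 higher in Ox-ARP than in Basal-ARP. The summed intensity of that list ran from 523 to 755 per array, its part in the results was not tested, and none of 6 macrophage and blood genes or of 2 glial genes was detected throughout any group.

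Levels below are background-corrected, quantile-normalized log2 intensities, given as mean ± SD over 4 arrays, and differences are log2 fold changes ± the standard error of the limma fit. Because quantile normalization equalises the distributions of all arrays, captured and total RNA can be compared only in relative representation. Calls used the Benjamini-Hochberg method across the 10794 probes, with an adjusted p under 0.05. Probes of 1 gene are numbered from the brightest.

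Peroxide left the G1/S set without a called change in unselected RNA. Of 15 probes 0 passed in Ox-total against Basal-total, and 0 reached an unadjusted p under 0.05, against 0.241% of all probes called (0.0463% up and 0.195% down) and 1089 of 10794 at an unadjusted p under 0.05. Differences ran from -0.21 for probe 4 of Cdk2 to 0.09 for probe 1 of Cdkn2a, with a median of -0.12 against 0.01 over all probes, and adjusted p-values from 0.518 to 0.991. The groups did not overlap for 1 of 15 probes, probe 1 of Ccnd1 (-0.17 ± 0.08, adjusted p = 0.518), against 6.24% of all probes. With median scaling that difference was -0.03. The 95% intervals of the fit bounded single genes at different widths: from -0.34 to 0.01 for probe 1 of Ccnd1, from -0.46 to 0.07 for Ccne2 and from -0.56 to 0.24 for Cdkn1b. In bulk RNA, a change in the share of cycling cells and a change in transcript per cell could not have been told apart.

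**Figure D1:**
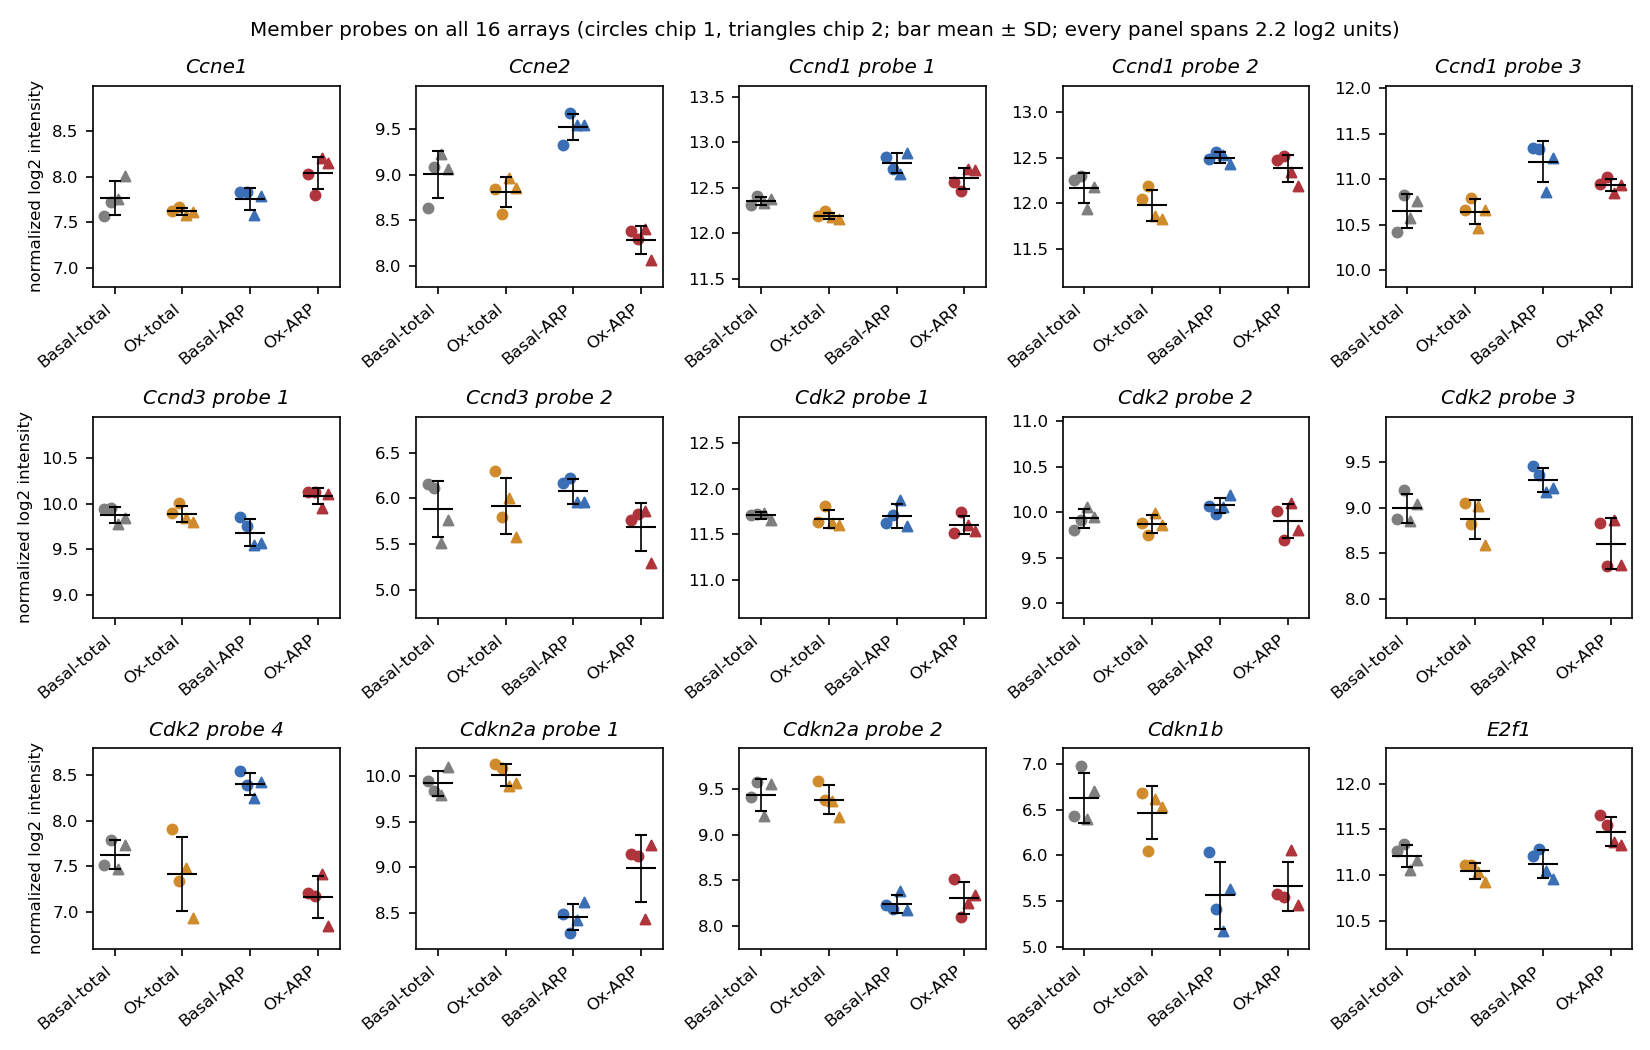
Normalized log2 intensity (vertical axes, each spanning 2.2 units) of the 15 passing probes on the 16 arrays, by group (horizontal axes), with circles for chip 1, triangles for chip 2 and a bar for mean ± SD. Both probes of Cdkn2a lie lower on all captured arrays than on all total arrays, and Ccne2 is highest in Basal-ARP and lowest in Ox-ARP.

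In the main fit the inhibitor genes Cdkn2a and Cdkn1b were depleted in captured RNA and the cyclin gene Ccnd1 was enriched. Of these, Cdkn1b rests on 1 dim probe, and the Ccnd1 calls were lost without normalization between arrays. The first question was which members the pull-down enriched or depleted when cells were untreated. In Basal-ARP against Basal-total 8 of 15 probes passed, 5 up and 3 down, against 31.9% of all probes (16.7% up and 15.2% down). The groups did not overlap for 8 of 15 probes, against 27.7% of all. Both probes of Cdkn2a and the passing probe of Cdkn1b fell, and all 3 probes of Ccnd1, the probe of Ccne2 and 1 of 4 probes of Cdk2 rose. The median of the 15 was 0.14, against 0.03 over all probes. The split was 3 up and 3 down with median scaling, against 9.18% of all probes up and 14.6% down under that scaling. It was 1 up and 3 down without normalization between arrays, against 1.14% and 8.46% of all. In Ox-ARP against Ox-total, the same question in peroxide-treated cells, 8 of 15 probes passed, 4 up and 4 down, against 27% of all probes (13.6% up and 13.4% down). The median was -0.07 against 0.03, and the groups did not overlap for 8 of 15 probes, against 28.5% of all. Without normalization between arrays 0 rose and 3 fell, against 2.12% and 4.5% of all probes, and with the authors' processed values 6 rose and 4 fell, against 20.4% and 10.8% of all. The 15 probes stand for 8 genes and are not independent of each other.

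**Figure D2:**
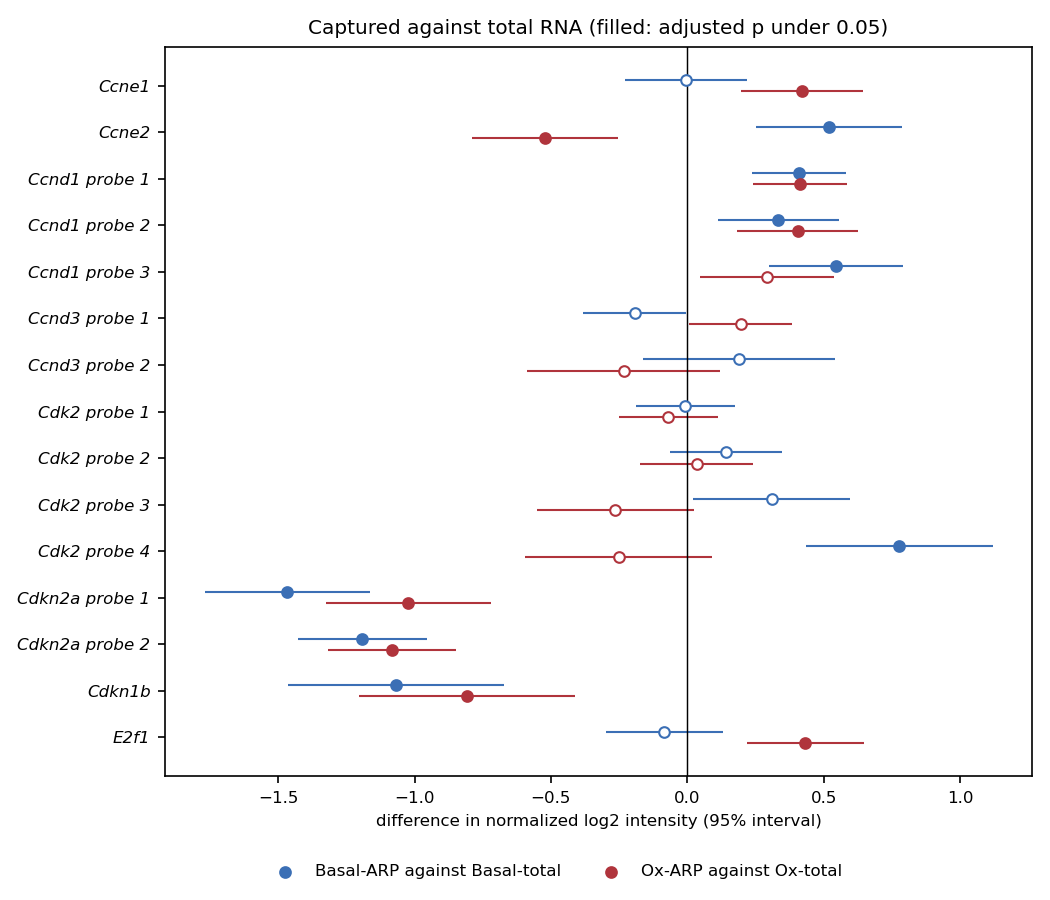
Difference in normalized log2 intensity between captured and total RNA (horizontal axis, points with 95% intervals) for each passing probe, in untreated cells (blue) and peroxide-treated cells (red), with filled points at an adjusted p under 0.05. Both Cdkn2a probes and Cdkn1b lie left of 0 in both conditions, all Ccnd1 probes lie right of 0, and Ccne2 changes side between conditions.

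Cdkn2a, the locus of p16INK4a and p19ARF, fell on capture on both of its probes and in both conditions. Its probe 1 read 9.95, 9.84, 9.79 and 10.10 on the Basal-total arrays and 8.49, 8.28, 8.43 and 8.63 on the Basal-ARP arrays. It read 10.14, 10.09, 9.89 and 9.92 in Ox-total and 9.15, 9.12, 8.44 and 9.24 in Ox-ARP. Every captured array lay below every total array. On capture from untreated cells the probe fell by 1.47 ± 0.14 (2.76-fold lower, adjusted p = 1.73e-06) and from peroxide-treated cells by 1.02 ± 0.14 (2.03-fold lower, adjusted p = 6.81e-05). Probe 2 read 9.41, 9.58, 9.20 and 9.55 in Basal-total, 8.23, 8.18, 8.39 and 8.17 in Basal-ARP, 9.59, 9.38, 9.37 and 9.19 in Ox-total and 8.51, 8.09, 8.25 and 8.34 in Ox-ARP. It too had captured and total arrays without overlap, and fell by 1.19 ± 0.11 (adjusted p = 1.05e-06) and by 1.08 ± 0.11 (adjusted p = 2.89e-06). On chips 1 and 2 alone the change in untreated cells was -1.51 and -1.42 for probe 1 and -1.29 and -1.10 for probe 2.

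Both Cdkn2a probes were assigned by the gene's symbol, and the gene has a pair of start sites 12.4 kb apart. The upstream start leads to p19ARF and the downstream one to p16INK4a, from overlapping exons read in different frames. The sequences before both starts are shown because the arrays were not used to tell these transcripts apart. That of Cdk2 is shown because, among the sequences searched, it held the other match to an E2F-type motif. The sequences are the 250 bases before each start in RefSeq's GRCm38.p6, 5′ to 3′ on the minus strand, at chr4:89294620-89294869, chr4:89282193-89282442 and chr10:128705052-128705301 in that order. Capitals mark a match to TTTCCCGC, TTTCGCGC, TTTGCCGC or TTTGGCGC, 4 forms of the E2F motif searched on both strands.
Cdkn2a, upstream start: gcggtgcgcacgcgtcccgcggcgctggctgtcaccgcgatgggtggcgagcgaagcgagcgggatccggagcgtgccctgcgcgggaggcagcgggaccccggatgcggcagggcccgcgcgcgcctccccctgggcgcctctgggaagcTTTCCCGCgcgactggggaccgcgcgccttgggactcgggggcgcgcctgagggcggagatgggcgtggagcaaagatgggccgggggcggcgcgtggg
Cdkn2a, downstream start: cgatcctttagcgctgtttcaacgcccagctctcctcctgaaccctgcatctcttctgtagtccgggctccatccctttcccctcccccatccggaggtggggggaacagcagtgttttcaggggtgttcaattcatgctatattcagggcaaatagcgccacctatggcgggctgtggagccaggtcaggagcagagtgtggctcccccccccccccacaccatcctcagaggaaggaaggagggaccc
Cdk2: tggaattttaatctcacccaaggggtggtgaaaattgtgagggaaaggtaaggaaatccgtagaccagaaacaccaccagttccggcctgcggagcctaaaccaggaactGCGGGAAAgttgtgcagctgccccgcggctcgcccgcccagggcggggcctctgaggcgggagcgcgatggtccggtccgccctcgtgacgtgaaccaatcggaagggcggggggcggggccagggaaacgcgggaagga
The match begins 99 bases before the upstream Cdkn2a start, and 140 bases before the Cdk2 start on the opposite strand. RefSeq's table held 9 such windows for 7 of the 10 genes, of which 2 had a match, and 1.86% of its 32851 windows had one. No window was held for Ccne2, Ccnd1 or Ccnd2. Other starts and sequence outside the windows were not searched, so a window without a match does not show that its gene lacks the motif. A match describes letters in the window and nothing about binding in these cells.

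Cdkn1b, which encodes p27, was measured by 1 dim probe near the detection limit. It read 6.43, 6.98, 6.40 and 6.71 in Basal-total and 6.69, 6.05, 6.62 and 6.53 in Ox-total, and was detected on all of these arrays. In Basal-ARP it read 6.03, 5.41, 5.17 and 5.63, with detection on 2 of 4 arrays, and in Ox-ARP 5.58, 5.55, 6.06 and 5.46, with detection on 3 of 4. The captured arrays lay below the total arrays without overlap in untreated cells and overlapped with them in peroxide-treated cells. The fall was 1.07 ± 0.19 in the former (adjusted p = 0.000446) and 0.81 ± 0.19 in the latter (adjusted p = 0.00432). Its size moved with the processing: the values in untreated and treated cells were -0.67 and -0.51 without background correction, and -1.39 and -0.99 with the authors' processed values. On chips 1 and 2 alone the values were -0.98 and -1.15 in untreated cells, and -0.80 and -0.81 in treated cells, where neither chip passed alone (adjusted p = 0.0728 and 0.0541). The gene's 2 other probes had group means from 4.34 to 4.98 and were detected on no array.

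Ccnd1, which encodes cyclin D1, was read by 3 probes that moved together over the 16 arrays, with pairwise Pearson correlations of 0.752, 0.766 and 0.826. Probe 1 read 12.31, 12.41, 12.33 and 12.38 in Basal-total and 12.84, 12.70, 12.65 and 12.88 in Basal-ARP. It read 12.19, 12.24, 12.18 and 12.15 in Ox-total and 12.56, 12.46, 12.71 and 12.69 in Ox-ARP. In both conditions all captured arrays lay above all total arrays, by 0.41 ± 0.08 in untreated cells (adjusted p = 0.00124) and 0.41 ± 0.08 in treated cells (adjusted p = 0.00132). Probe 2 rose by 0.33 ± 0.11 (adjusted p = 0.0231) and 0.40 ± 0.11 (adjusted p = 0.00886). Probe 3 rose by 0.55 ± 0.12 in untreated cells (adjusted p = 0.00203) and had 0.29 ± 0.12 in treated cells (adjusted p = 0.0729, 0.0432 with chip as a block and 0.0196 with the replicate number as a block). None of the 3 probes overlapped between captured and total groups in either condition.

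The Ccnd1 calls were sensitive to scaling in both conditions. With median scaling the values of probes 1, 2 and 3 in untreated cells were 0.25, 0.22 and 0.50. Those of probes 1 and 2 no longer passed there (adjusted p = 0.0636 and 0.175). In treated cells both calls held with median scaling, at 0.31 for probe 1 and 0.32 for probe 2 (adjusted p = 0.0256 and 0.0489). Without normalization between arrays all 3 calls in untreated cells were lost, at 0.16, 0.12 and 0.40 (adjusted p = 0.676, 0.709 and 0.157). In treated cells both calls were lost with that setting, at 0.27 for probe 1 and 0.28 for probe 2 (adjusted p = 0.443 and 0.329). Probe 2 in untreated cells also did not pass with cyclic loess (0.26, adjusted p = 0.0717) or with the authors' processed values (0.30, adjusted p = 0.05). Without Basal-total replicate 3 probe 2 had 0.26 (adjusted p = 0.0728), and without Basal-ARP replicate 2 it had 0.31 (adjusted p = 0.0576). On chips 1 and 2 alone probe 1 had 0.41 and 0.41 in untreated cells, where chip 2 did not pass (adjusted p = 0.0758), and 0.29 and 0.53 in treated cells, where chip 1 did not (adjusted p = 0.124). Probe 2 passed on neither chip alone in untreated cells (adjusted p = 0.172 and 0.0782) or in treated cells (adjusted p = 0.0547 and 0.1), and probe 3 in untreated cells did not pass on chip 2 (0.38, adjusted p = 0.147).

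Ccnd3, another D-type cyclin gene, had a bright and a dim passing probe, which correlated at -0.254 over the 16 arrays. The mean of probe 1 in untreated cells was 9.88 ± 0.09 (SD, n = 4) before and 9.68 ± 0.15 after capture, and in treated cells 9.89 ± 0.09 before and 10.08 ± 0.09 after it. Its difference on capture was -0.19 ± 0.09 in untreated cells (adjusted p = 0.108, 0.0346 with chip and 0.0385 with replicate number as a block, and 0.0472 without Basal-ARP replicate 1). In treated cells it was 0.20 ± 0.09 (adjusted p = 0.118, 0.0374 and 0.0415 with these blocks, and 0.29 with adjusted p = 0.0124 with the authors' processed values). Both differences thus passed only under some settings, and they had opposite signs. Probe 2 lay between 5.29 and 6.29 on all arrays and had 0.19 ± 0.17 and -0.23 ± 0.17 on capture (adjusted p = 0.409 and 0.327). Ccnd2, the third D-type cyclin gene, had group means from 4.41 to 4.48 and was detected on no array.

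On capture from peroxide-treated cells Ccne1 rose and Ccne2 fell. Ccne2 read 8.64, 9.09, 9.22 and 9.07 in Basal-total and 9.33, 9.68, 9.54 and 9.54 in Basal-ARP. It read 8.84, 8.57, 8.96 and 8.86 in Ox-total and 8.38, 8.30, 8.41 and 8.07 in Ox-ARP. Captured arrays were all above total arrays without peroxide and all below them with it. The gene rose on capture by 0.52 ± 0.13 in untreated cells (adjusted p = 0.00513) and fell by 0.52 ± 0.13 in treated cells (adjusted p = 0.00573). The values on chips 1 and 2 alone were 0.64 and 0.40 without peroxide, where chip 2 did not pass (adjusted p = 0.111). They were -0.37 and -0.67 with it, where chip 1 did not (adjusted p = 0.199). Without normalization between arrays neither call held, at 0.41 without peroxide and -0.49 with it (adjusted p = 0.343 and 0.277).

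Ccne1 read 7.57, 7.73, 7.76 and 8.01 in Basal-total, 7.83, 7.83, 7.58 and 7.79 in Basal-ARP, 7.63, 7.67, 7.58 and 7.62 in Ox-total and 8.03, 7.80, 8.20 and 8.15 in Ox-ARP. Its captured and total arrays overlapped without peroxide (-0.01 ± 0.11, adjusted p = 0.968) and were apart with it, where the gene rose by 0.42 ± 0.11 (adjusted p = 0.00741). Chips 1 and 2 alone gave 0.26 and 0.58 in treated cells, and chip 1 did not pass (adjusted p = 0.187). The value without normalization was 0.47 (adjusted p = 0.202).

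E2f1, the founding member of the E2F family, read 11.27, 11.34, 11.06 and 11.16 in Basal-total and 11.21, 11.29, 11.04 and 10.95 in Basal-ARP. It read 11.10, 11.11, 11.03 and 10.92 in Ox-total and 11.66, 11.55, 11.36 and 11.33 in Ox-ARP. Like those of Ccne1, its captured arrays overlapped with the total arrays without peroxide (-0.08 ± 0.10, adjusted p = 0.552) and lay above them with peroxide, by 0.43 ± 0.10 (adjusted p = 0.00464). The chip values in treated cells were 0.50 and 0.37, and chip 2 did not pass alone (adjusted p = 0.121). With no normalization between arrays E2f1 had 0.39 there (adjusted p = 0.16).

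Cdk2, the catalytic partner of the E-type cyclins, was read by 4 probes, of which 1 was called on capture from untreated cells. Probe 4 read 7.51, 7.79, 7.46 and 7.73 in Basal-total and 8.54, 8.39, 8.25 and 8.42 in Basal-ARP, with every captured array above every total array. It rose there by 0.78 ± 0.16 (1.71-fold, adjusted p = 0.00168), with 0.82 and 0.74 on chips 1 and 2, of which chip 2 did not pass alone (adjusted p = 0.0599). Probe 3 had 0.31 ± 0.14 (adjusted p = 0.0927, and 0.37 with adjusted p = 0.0363 with the authors' processed values), probe 2 had 0.14 ± 0.10 (adjusted p = 0.285) and probe 1, the brightest, had -0.01 ± 0.09 (adjusted p = 0.957). In treated cells the 4 probes had -0.07, 0.03, -0.26 and -0.25 on capture in the order of their numbers, and none passed. Without Ox-total replicate 4 probe 4 fell there by 0.41 (adjusted p = 0.0499). Probes 3 and 4 correlated at 0.916 over the 16 arrays, probe 2 with probes 3 and 4 at 0.643 and 0.595, and probe 1 with probes 2, 3 and 4 at -0.22, 0.167 and 0.251. The platform annotation gives probe 3 another transcript accession than it gives the other 3. Where each probe lies on the transcripts was not used here, and whether probes differed from each other was not tested.

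The comparison of Ox-ARP with Basal-ARP asks how peroxide altered the make-up of captured RNA, and 6 of 15 probes passed, 3 up and 3 down, against 29.2% of all probes (13.8% up and 15.4% down). Median scaling gave 4 up and 3 down, against 21.7% of all probes up and 7.52% down, with the median of all probes at 0.13 in place of 0.02. No normalization gave 3 up and 2 down, against 9.85% and 2.33% of all, with that median at 0.18. The members had a median of -0.12. The groups did not overlap for 6 of 15 probes, against 27.3% of all. The comparison shares the Ox-ARP and Basal-ARP arrays with those above, so its values are not independent of them.

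Ccne2 fell in captured RNA from 9.52 ± 0.15 without peroxide (SD, n = 4) to 8.29 ± 0.16 with it. The change was -1.23 ± 0.13 (2.35-fold lower, adjusted p = 9.96e-06), with -1.16 and -1.31 on chips 1 and 2. In total RNA the difference was -0.19 ± 0.13 (adjusted p = 0.646). Probe 4 of Cdk2 read 7.21, 7.17, 7.41 and 6.85 in Ox-ARP, all below the Basal-ARP arrays, and fell by 1.24 ± 0.16 (2.36-fold lower, adjusted p = 5.54e-05). Probe 3 of Cdk2 fell by 0.69 ± 0.14 (adjusted p = 0.00135), and that call was lost without normalization between arrays (-0.49, adjusted p = 0.0725) and on chip 2 alone (-0.58, adjusted p = 0.0847). Probes 1 and 2 had -0.10 ± 0.09 and -0.17 ± 0.10 (adjusted p = 0.402 and 0.203). Those 2 values were 0.07 and 0.00 with median scaling.

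Of the probes called higher in Ox-ARP, probe 1 of Ccnd3 rose by 0.40 ± 0.09 (adjusted p = 0.00334). Chips 1 and 2 gave 0.33 and 0.47, and chip 1 did not pass alone (adjusted p = 0.0927). The gene's dim probe 2 had the opposite sign and did not pass, though its groups did not overlap. E2f1 rose by 0.35 ± 0.10 (adjusted p = 0.0163), and chips 1 and 2 gave 0.35 and 0.35 without passing alone. That call was lost without Basal-ARP replicate 4 (0.29, adjusted p = 0.0579) and without Ox-ARP replicate 1 (0.29, adjusted p = 0.0572). Probe 1 of Cdkn2a rose by 0.53 ± 0.14 (adjusted p = 0.0107), with 0.75 and 0.31 on chips 1 and 2, of which chip 2 did not pass (adjusted p = 0.388), and its array Ox-ARP 3 lay among the Basal-ARP arrays. Probe 2 of Cdkn2a had 0.06 ± 0.11 (adjusted p = 0.728), so the gene's probes did not share this call.

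The remaining members did not pass. Ccne1 had 0.28 ± 0.11 (adjusted p = 0.0536, 0.0365 with chip as a block, 0.0207 without Ox-ARP replicate 2, and 0.40 with adjusted p = 0.015 with median scaling), Cdkn1b 0.10 ± 0.19 and probe 2 of Ccnd3 -0.39 ± 0.17 (adjusted p = 0.0883, 0.0278 with chip as a block). The Ccnd1 probes had -0.16 ± 0.08, -0.12 ± 0.11 and -0.26 ± 0.12 in the order of their numbers. With median scaling these were 0.03, 0.04 and -0.09, so no direction can be given for probes 1 and 2. Probe 3 stayed below 0 under every alternative, from -0.36 to -0.04 with all arrays or 1 chip in use. It passed with the replicate number as a block (adjusted p = 0.0345) and without Basal-ARP replicate 3 (-0.37, adjusted p = 0.0192).

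**Figure D3:**
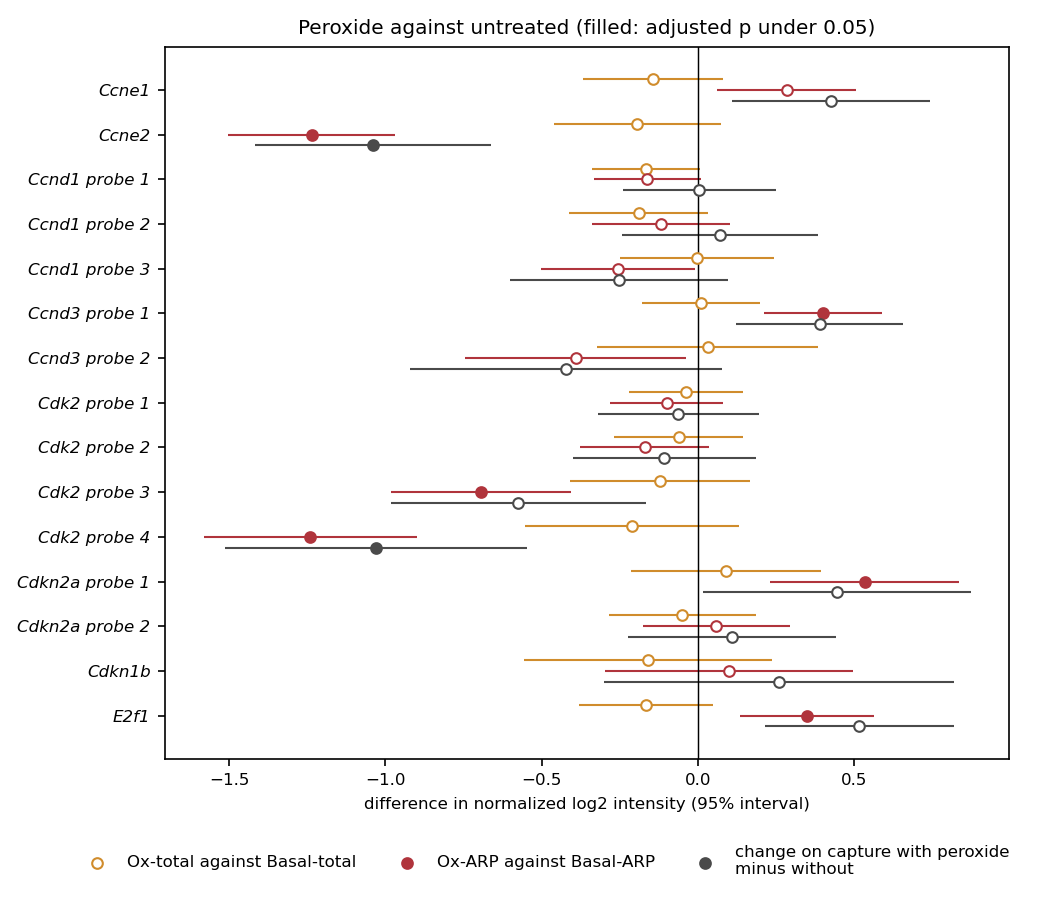
Difference in normalized log2 intensity between peroxide-treated and untreated cells (horizontal axis, points with 95% intervals) in total RNA (orange) and captured RNA (red), and the difference between the changes on capture (grey), with filled points at an adjusted p under 0.05. No orange point is filled, and Ccne2 and probe 4 of Cdk2 lie near -1.23 and -1.24 in captured RNA.

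Whether capture itself differed between conditions was tested with the interaction: the shift on pull-down in treated cells less that in untreated cells. It passed for 2 of 15 probes, both down, against 2.48% of all probes (0.76% up and 1.72% down). With chip as a block it passed for 4, 2 of them up, against 826 of all 10794 probes. Without normalization between arrays it passed for 0, against 1 of all 10794. Ccne2 had -1.04 ± 0.18 (adjusted p = 0.00943), with -1.01 and -1.07 on chips 1 and 2, neither of which passed alone (adjusted p = 0.222 and 0.352). Probe 4 of Cdk2 had -1.03 ± 0.23 (adjusted p = 0.0249), with -1.25 and -0.81 on chips 1 and 2, neither of which passed alone (adjusted p = 0.202 and 0.395). Without normalization between arrays the values of Ccne2 and of that probe were -0.89 and -0.86 (adjusted p = 0.45 and 0.257). The call of the Cdk2 probe was also lost with no filter on detection (adjusted p = 0.058), and without Basal-total replicate 1, Ox-total replicate 3, Ox-ARP replicate 2 or Ox-ARP replicate 4, with values from -0.92 to -1.03 and adjusted p-values from 0.0525 to 0.0613. It is the dimmest of the gene's 4 probes. Probes 1, 2 and 3 of Cdk2 did not pass, with -0.06 ± 0.12, -0.11 ± 0.14 and -0.57 ± 0.19 (adjusted p = 0.838, 0.735 and 0.113).

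E2f1 came next with 0.52 ± 0.14 (adjusted p = 0.0631). It passed with chip as a block (adjusted p = 0.00729), with median scaling (0.57, adjusted p = 0.049) and without background correction (0.51, adjusted p = 0.0483), and the 2 chips gave 0.55 and 0.48. Probe 1 of Ccnd3 had 0.39 ± 0.13 (adjusted p = 0.102, 0.026 with chip as a block). With the authors' processed values it had 0.43 (adjusted p = 0.0482). Probe 2 of Ccnd3 had the opposite sign, at -0.42 ± 0.24 (adjusted p = 0.352). Ccne1 had 0.43 ± 0.15 (adjusted p = 0.131), with 0.08 and 0.78 on chips 1 and 2. Probe 1 of Cdkn2a had 0.44 ± 0.20 (adjusted p = 0.244), and without Ox-ARP replicate 3 it had 0.63 (adjusted p = 0.0282). Probe 2 of Cdkn2a (0.11 ± 0.16), Cdkn1b (0.26 ± 0.27) and the Ccnd1 probes (0.00 ± 0.12, 0.07 ± 0.15 and -0.25 ± 0.17) did not pass. Their 95% intervals reached from -0.22 to 0.44 for probe 2 of Cdkn2a, from -0.30 to 0.82 for Cdkn1b and from -0.24 to 0.25 for probe 1 of Ccnd1.

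The wider G1/S network was described with 6 lists of genes around these members, whose counts stand beside the shares of all 10794 probes called: 16.7% up and 15.2% down on capture from untreated cells, 13.6% and 13.4% on capture from treated cells, and 13.8% and 15.4% between captured groups. In Ox-total against Basal-total 0 probes of each list passed in the limma fit, and E2f2, Skp2, Fbxo31, Bmi1, Mdm2 and Gsk3b had 1 probe each at an unadjusted p under 0.05 (from 0.0105 to 0.0497). In the other CDK inhibitors, 0 rose and 2 fell of 5 passing probes on capture from untreated cells (0% and 40%, against 16.7% and 15.2% of all probes; median -0.25 against 0.03): Cdkn2d, the gene of p19INK4d, fell by 0.56 ± 0.11 (adjusted p = 0.00103) and 1 of 3 probes of Cdkn1a, the gene of p21, by 0.49 ± 0.18 (adjusted p = 0.0476). In treated cells 0 of 5 passed, with the smallest unadjusted p at 0.337 and 2 probes of Cdkn1a at -0.13 ± 0.13 and 0.08 ± 0.18. Cdkn2d rose by 0.51 ± 0.11 in Ox-ARP against Basal-ARP (adjusted p = 0.00234), and its interaction was 0.53 ± 0.15 (adjusted p = 0.0732). In the list of other cyclins, kinases and activators, 1 of 6 probes rose and 2 fell in untreated cells (16.7% and 33.3%, against 16.7% and 15.2% of all) and 0 rose and 2 fell in treated cells (0% and 33.3%, against 13.6% and 13.4%). The falls were both probes of Mnat1, a subunit of the CDK-activating kinase, with -0.67 ± 0.12 and -0.62 ± 0.12 without peroxide and -0.51 ± 0.12 and -0.53 ± 0.12 with it.

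Among pocket proteins and other E2F and DP factors, 7 of 16 probes rose and 1 fell on capture from untreated cells (43.8% and 6.25%, against 16.7% and 15.2% of all probes; median 0.24). In treated cells 3 rose and 0 fell (18.8% and 0%, against 13.6% and 13.4%; median -0.01). All 3 probes of Tfdp2, which encodes a dimerisation partner of E2F, rose in both, by 0.37 to 0.43 without peroxide (SE 0.12 to 0.13) and by 0.35 to 0.41 with it. E2f4, the gene of a repressive E2F, fell by 0.70 ± 0.13 without peroxide (adjusted p = 0.000841). Between captured groups 1 rose and 3 fell (6.25% and 18.8%, against 13.8% and 15.4%), with 1 of 3 probes of E2f6, another repressor gene of the family, at -0.59 ± 0.09 and Rbl1, the gene of p107, at -0.57 ± 0.13.

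Of the E2F-driven S phase genes, 9 of 29 probes rose and 2 fell in untreated cells (31% and 6.9%, against 16.7% and 15.2% of all probes), 3 rose and 3 fell in treated cells (10.3% each, against 13.6% and 13.4%), and 2 rose and 7 fell in Ox-ARP against Basal-ARP (6.9% and 24.1%, against 13.8% and 15.4%). In both directions together the shares were 37.9%, 20.7% and 31%, near the 31.9%, 27% and 29.2% of all probes, and the medians were 0.08, 0.01 and -0.04. Mcm4 and Mcm7, subunits of the replicative helicase, passed the interaction at -1.06 ± 0.23 (adjusted p = 0.0222) and -0.97 ± 0.19 (adjusted p = 0.0151), and between captured groups fell by 1.03 ± 0.16 and 1.15 ± 0.14. The 2 other passing probes of Mcm4 did not pass the interaction, with -1.14 ± 0.30 (adjusted p = 0.0532) and -0.25 ± 0.16 (adjusted p = 0.403). Tyms, the thymidylate synthase gene, had probes called in opposite directions: on capture from untreated cells 2 rose, by 0.75 ± 0.12 and 0.34 ± 0.09, and 2 fell, by 0.43 ± 0.10 and 0.43 ± 0.11. In treated cells the smallest p-values belonged to 1 probe of Mcm6, which rose by 0.45 ± 0.07 (adjusted p = 0.000287), and 1 of Tyms, which fell by 0.52 ± 0.10 (adjusted p = 0.000761).

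**Figure D4:**
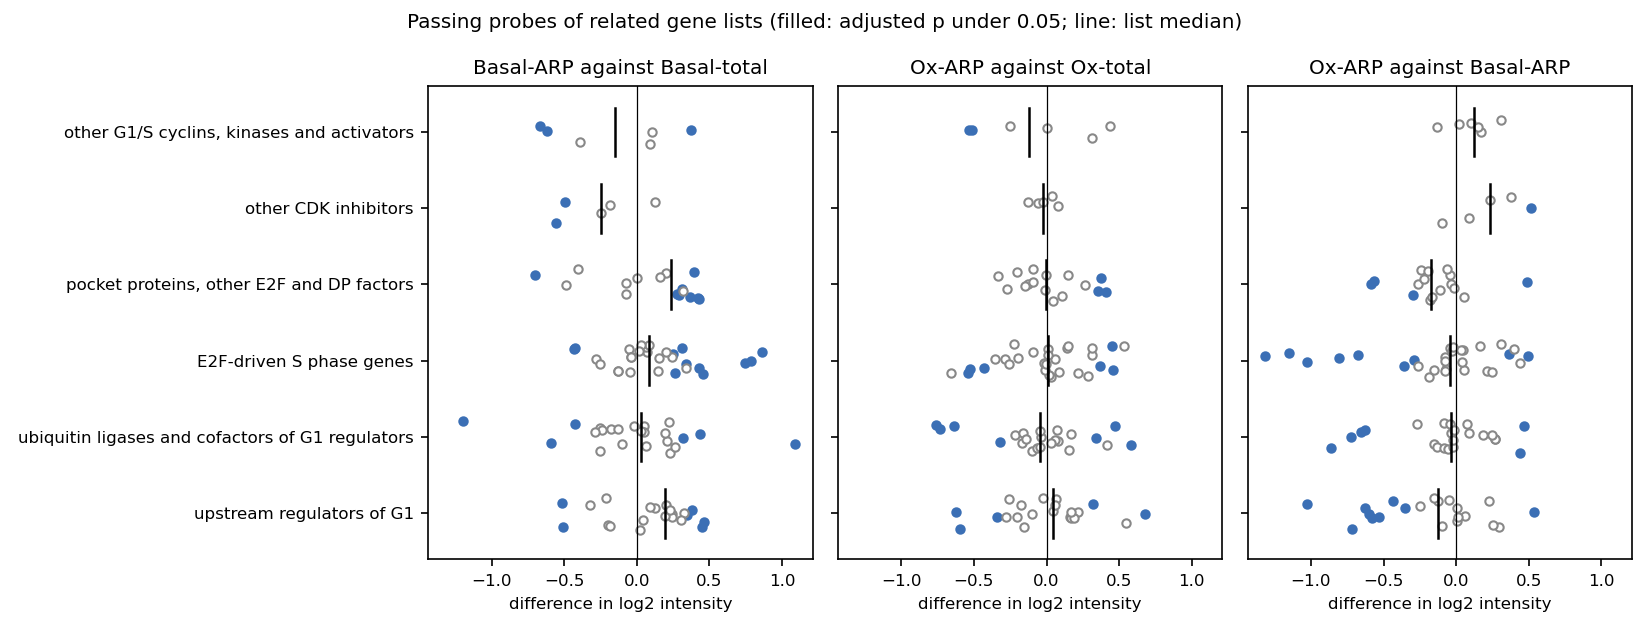
Difference in normalized log2 intensity (horizontal axes) of every passing probe in 6 lists of related genes (vertical axis), for captured against total RNA in untreated and treated cells and for treated against untreated captured RNA, with filled points at an adjusted p under 0.05 and a line at each list's median. The pocket protein, E2F and DP list has its median at 0.24 in the first panel, -0.01 in the second and -0.18 in the third.

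Of 23 probes for ubiquitin ligases of G1 regulators, 3 rose and 3 fell in untreated cells (26.1% called, against 31.9% of all probes), 3 rose and 4 fell in treated cells (30.4% against 27%), and 2 rose and 4 fell between captured groups (26.1% against 29.2%). These shares too lie near those of all probes. Fbxw7, whose product directs the destruction of cyclin E, fell on capture by 1.19 ± 0.12 (adjusted p = 2.61e-06) and by 0.76 ± 0.12 (adjusted p = 0.000261). Skp2, whose product directs that of p27, fell on 2 of 3 probes in Ox-ARP against Basal-ARP, by 0.86 ± 0.14 (adjusted p = 0.000419) and 0.63 ± 0.16 (adjusted p = 0.00736). A probe of the cullin gene Cul4a rose by 1.09 ± 0.16 on capture from untreated cells (adjusted p = 7.9e-05), and by 0.58 ± 0.16 in treated cells (adjusted p = 0.0111), where another fell by 0.74 ± 0.16 (adjusted p = 0.0023). Ddb1, the gene of an adaptor of that cullin, had an interaction of 0.67 ± 0.16 (adjusted p = 0.033).

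Among 21 probes of upstream regulators 4 rose and 2 fell in untreated cells (28.6% called, against 31.9% of all probes) and 2 rose and 3 fell in treated cells (23.8% against 27%), both near the shares of all. Between captured groups 1 rose and 8 fell (4.76% and 38.1%, against 13.8% and 15.4%; median -0.12). Bmi1, the gene of a Polycomb protein that represses the Cdkn2a locus, had the smallest p there at -1.03 ± 0.12 (adjusted p = 2.09e-05), and its interaction was -0.69 ± 0.17 (adjusted p = 0.0375). Dmtf1, which encodes an activator of p19ARF transcription, rose on 1 of 3 probes on capture from untreated cells, by 0.46 ± 0.11 (adjusted p = 0.00534), and fell on 2 of 3 in Ox-ARP against Basal-ARP, by 0.60 ± 0.11 (adjusted p = 0.000981) and 0.53 ± 0.15 (adjusted p = 0.0162). Nras rose by 0.45 ± 0.10 without peroxide and both probes of Mybl2, a cell cycle transcription factor gene, by 0.68 ± 0.11 and 0.32 ± 0.11 with it, while 1 of 2 probes of Max, the gene of the MYC partner, fell by 0.62 ± 0.17 with it.

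The profile of each member over the 16 arrays was set against 10171 passing probes of other named genes, as a description in which all points share arrays and normalization. The nearest to Ccne2 were Cbfb (Pearson's r 0.964) and Tram1 (0.953), to Ccnd1 G3bp1 (0.965) and Polr2e (0.958), and to Cdkn2a Ifi27 (0.961) and Grcc10 (0.960). For Cdkn1b they were Brd2 (0.941) and Fst (0.937), for Ccnd3 Lrrc3 (0.952) and Tmem198 (0.952), and for E2f1 C8b (0.905) and Arfrp1 (0.893). Ccne1 had Emid1 (0.887) and Pdia4 (0.866), and probe 1 of Cdk2 Tent4a (0.858) and Zscan20 (0.846).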

How the data were processed

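Single-colour Illumina bead arrays measured RNA of Neuro 2a cells in 4 groups of 4. The deposited scanner table, made with GenomeStudio 2010.2 per the submitters' processing notes, gives 1 mean intensity and 1 detection p-value per probe and array, and per the file headers neither was normalized between arrays. The authors' processed intensity table is already scaled: every column has a mean of 376, medians run from 12.3 to 16.3 and 28.2% of values lie below 0. It served as an alternative, with values under 1 set to 1. No per-sample column was left unused.

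Intensities were background-corrected by normexp, with negative controls inferred from detection p-values and an offset of 16, then quantile-normalized and log2-transformed (limma 3.58.1, R 4.3.3). Probes with a detection p under 0.01 on all 4 arrays of a group were kept. The fit (lmFit, eBayes) had 1 mean per group over 16 arrays, 5 differences, and Benjamini-Hochberg adjustment over 10794 probes. The number of arrays limits precision: the median standard error was 0.12, and 0.17 for the interaction.

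Probe symbols came from the platform annotation, in which 23978 probes have 1 symbol and 1719 none. The members and lists were chosen with earlier results of these data known. All passing probes of the members are named, and for each member the 2 genes with the most similar profile. Of each list, named probes were drawn from the 2 with the smallest p in each comparison, and not all of these are given. Other probes of a named gene were added where they differ, after their values were seen. List genes at an unadjusted p under 0.05 in total RNA are named as well. Array position and group cannot be told apart, because no position was shared between groups. Most same-numbered arrays correlated after removal of group means. The correlations were 0.28 to 0.639 between Basal-ARP and Basal-total and 0.16 to 0.7 between Ox-ARP and Ox-total. They were -0.264 to 0.461 between Ox-total and Basal-total and 0.02 to 0.603 between Ox-ARP and Basal-ARP. Same-numbered arrays always shared a chip, and the part of the chip in these correlations was not tested. The main fit took no account of such a pairing, so its standard errors and p-values are unpaired. The replicate number served as a block only in an alternative. Alternatives changed the scaling, background correction, filter, probes per gene, blocks, chips, groups in the fit and arrays left out.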

Additional observations from a re-analysis of the deposited data

Results flagged for a closer look

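In 3 of 60 groups of 4 arrays a member probe had 1 array far from the others, with a gap to the nearest array above 0.829 of the group's range, and chance gives about 1 in 20. Probe 1 of Ccnd3 read 9.955 on array 3 of Ox-ARP, where the other arrays read 10.11 to 10.13. Probe 1 of Cdk2 read 11.81 on array 2 of Ox-total, against 11.61 to 11.64. Probe 1 of Cdkn2a read 8.436 on array 3 of Ox-ARP, against 9.124 to 9.242.

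The change on capture differed between peroxide-treated and untreated cells by -1.04 for Ccne2 (limma interaction, adjusted p = 0.00943) and by -1.029 for probe 4 of Cdk2 (adjusted p = 0.0249).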

How the results depend on the processing

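The 75 differences of member probes were recomputed under the alternatives to give 1635 values. Of these 1494 kept direction and side of the threshold, 48 lost a call, 31 gained one and 62, of 21 differences, turned sign. Of those that turned, 0 passed in either fit. In Ox-total against Basal-total 0 member probes were called under every alternative run, and at most 97 of all probes. Without normalization between arrays the counts called were 4 in place of 8 for Basal-ARP against Basal-total, 3 in place of 8 for Ox-ARP against Ox-total and 0 in place of 2 for the interaction. Of all 10794 probes 1036 in place of 3441, 715 in place of 2914 and 1 in place of 268 were called there. With 1 probe per gene, Basal-ARP against Basal-total had 4 of 8 member probes, against 2619 of all 8072. The interaction had 1 there, against 125 of 8072, and with no filter it had 1, against 216 of 25697. On chip 1 alone 3 member probes were called for Ox-ARP against Ox-total and 0 for the interaction, against 1558 and 3 of all 10794 probes. On chip 2 alone the member counts were 3 for Basal-ARP against Basal-total, 5 for Ox-ARP against Ox-total, 3 for Ox-ARP against Basal-ARP and 0 for the interaction. Of all 10794 probes 1259, 705, 1099 and 0 were called there, in the same order. The interaction had 4 with chip as a block, against 826 of all 10794 probes. Chips alone hold fewer arrays, and the cause of the other changes was not tested.

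With the replicate block 9 member probes were called for Basal-ARP against Basal-total, 10 for Ox-ARP against Ox-total and 9 for Ox-ARP against Basal-ARP. Of all 10794 probes 4568, 3935 and 4287 were then called, in place of 3441, 2914 and 3151. The interaction had 4 member probes, which then held Ccnd3 probe 1 (adjusted p = 0.0269) and E2f1 (adjusted p = 0.00883). Of all probes 1040 passed it, in place of 268. In the first 2 of these comparisons the block changed no call beyond those given with the results. Over all comparisons 14 of 16 same-numbered correlations were over 0.1, and 9 of 16 arrays correlated best with their own number.

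Leaving out 1 array at a time gave 7 to 9 called member probes for Basal-ARP against Basal-total, 8 to 9 for Ox-ARP against Ox-total, 5 to 7 for Ox-ARP against Basal-ARP and 1 to 3 for the interaction. Of all 10794 probes 2808 to 3461, 2328 to 2729, 2295 to 3148 and 110 to 325 were called, in the same order. The interaction had 1 member probe without Basal-total replicate 1, Ox-total replicate 3, Ox-ARP replicate 2 or Ox-ARP replicate 4, against 125, 110, 129 and 117 of all probes. It had 3 without Ox-ARP replicate 3, against 325 of all. Probe 1 of Cdkn1b and probe 2 of Ccnd3 lay near the detection limit, on 13 and 15 of 16 arrays above it.

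The values that turned sign belong to differences of at most 0.169 in size. In Ox-total against Basal-total, median scaling gave 0.089 for probe 3 of Ccnd1, -0.00015 for probe 2 of Ccnd3, 0.080 for probe 1 and 0.0090 for probe 2 of Cdk2 and 0.015 for probe 2 of Cdkn2a. For the same probes no normalization gave 0.086, -0.0030, 0.077, 0.0061 and 0.012. The authors' values gave -0.016 and -0.098 for the Ccnd3 probes, and cyclic loess 0.0041 for probe 3 of Ccnd1. Chip 1 alone gave 0.0022 for Ccne1, 0.098 for probe 3 of Ccnd1, -0.093 for probe 2 of Ccnd3 and 0.0061 for probe 1 of Cdk2, and chip 2 alone -0.038 for probe 1 of Cdkn2a and 0.019 for Cdkn1b. In Basal-ARP against Basal-total Ccne1 had 0.057 with the authors' values and 0.19 on chip 1, and probe 1 of Cdk2 0.034 on chip 2. In Ox-ARP against Basal-ARP median scaling gave 0.030 and 0.045 for probes 1 and 2 of Ccnd1 and 0.069 and 0.0015 for those of Cdk2, and no normalization 0.083, 0.098, 0.12 and 0.054. Cdkn1b had -0.16 there on chip 1. In the interaction probe 1 of Ccnd1 had -0.12 on chip 1, and probes 1 and 2 of Cdk2 had 0.045 and 0.048 without normalization.

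Leaving out 1 array turned the sign of 10 differences. The ranges in Ox-total against Basal-total were -0.079 to 0.058 for probe 3 of Ccnd1, -0.029 to 0.040 and -0.095 to 0.14 for probes 1 and 2 of Ccnd3 and -0.13 to 0.014 for probe 2 of Cdkn2a. On capture they were -0.072 to 0.076 for Ccne1 and -0.065 to 0.030 for probe 1 of Cdk2 in untreated cells, and -0.032 to 0.10 for probe 2 of Cdk2 in treated cells. Between captured groups they were -0.012 to 0.13 for probe 2 of Cdkn2a and -0.034 to 0.25 for Cdkn1b, and in the interaction -0.035 to 0.053 for probe 1 of Ccnd1.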
